A study of Mus musculus with 10 samples.

Results

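The genes described here are 9 members of the hedgehog pathway, namely the ligands Shh and Ihh, the receptors Ptch1, Hhip and Smo, the inhibitor Sufu and the transcription factors Gli1, Gli2 and Gli3. They were chosen by gene symbol, and all 9 were found among the 54532 genes measured by bulk RNA-sequencing of mouse lungs at postnatal day 14 (P14). The question was whether they changed in the same direction when the lung received increased pulmonary blood flow (IncPBF). The 5 lungs of the IncPBF group came from wild-type C57/BL6 pups in which a fistula between the abdominal aorta and the inferior vena cava was made by puncture on day 7 (P7). The 5 lungs of the sham group came from wild-type pups of the same age that had the same operation without the puncture. The pups were male or female, and their sex was not given lung by lung. The labels number the samples 1 to 5 in each group and do not say outright that each came from a separate pup, so the p-values measure the spread between these samples, which may in part be technical. The lungs had 16103423 to 20318525 fragments on genes with IncPBF and 18171494 to 19400575 with sham surgery.

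Hedgehog signaling starts with a secreted ligand. In the absence of ligand, Ptch1 keeps Smo inactive, and Sufu holds the Gli factors back, so that Gli3 in particular is cut into a repressor. When a ligand binds Ptch1, Smo is released and Gli2 and Gli3 are turned into activators, which induce Gli1, Ptch1 and Hhip, the genes most often used as readouts of the pathway. Ptch1 and Hhip bind the ligand and so limit the signal, whereas Gli1 carries it on. In the developing lung, Shh is made by the epithelium and received by the mesenchyme around it, which gives rise to smooth muscle and to alveolar myofibroblasts, and the study describes AT1 cells (flat alveolar epithelium) as the source of Shh for myofibroblasts.

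Of the 9 members, 5 were upregulated in the IncPBF group, 1 was downregulated, 2 did not pass the test and 1, Ihh, was too low to be tested. The upregulated members were Gli3 (2.23-fold), Gli1 (2.13-fold), Shh (1.74-fold), Smo (1.26-fold) and Gli2 (1.26-fold), and the downregulated member was Hhip (0.818-fold). Ptch1 and Sufu did not pass, with folds of 1.12 and 1.02. Thus 7 of the 8 tested members had a positive log2 fold change, and the negative one belonged to a receptor that is itself induced by the pathway. These folds come from a test with limma on log2(FPKM + 0.1), where FPKM is the number of sequenced fragments per kilobase of gene, divided by a library size of each lung. All genes with a mean of at least 0.5 FPKM were fitted together, and a gene was called at a Benjamini-Hochberg adjusted p under 0.05. Of the 15388 genes tested, 16.1% were called higher and 16.2% lower, so that calls in each direction were frequent in these lungs. The median log2 fold change was 0.33 over the 8 tested members and 0.01 over all genes tested.

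**Figure D1:**
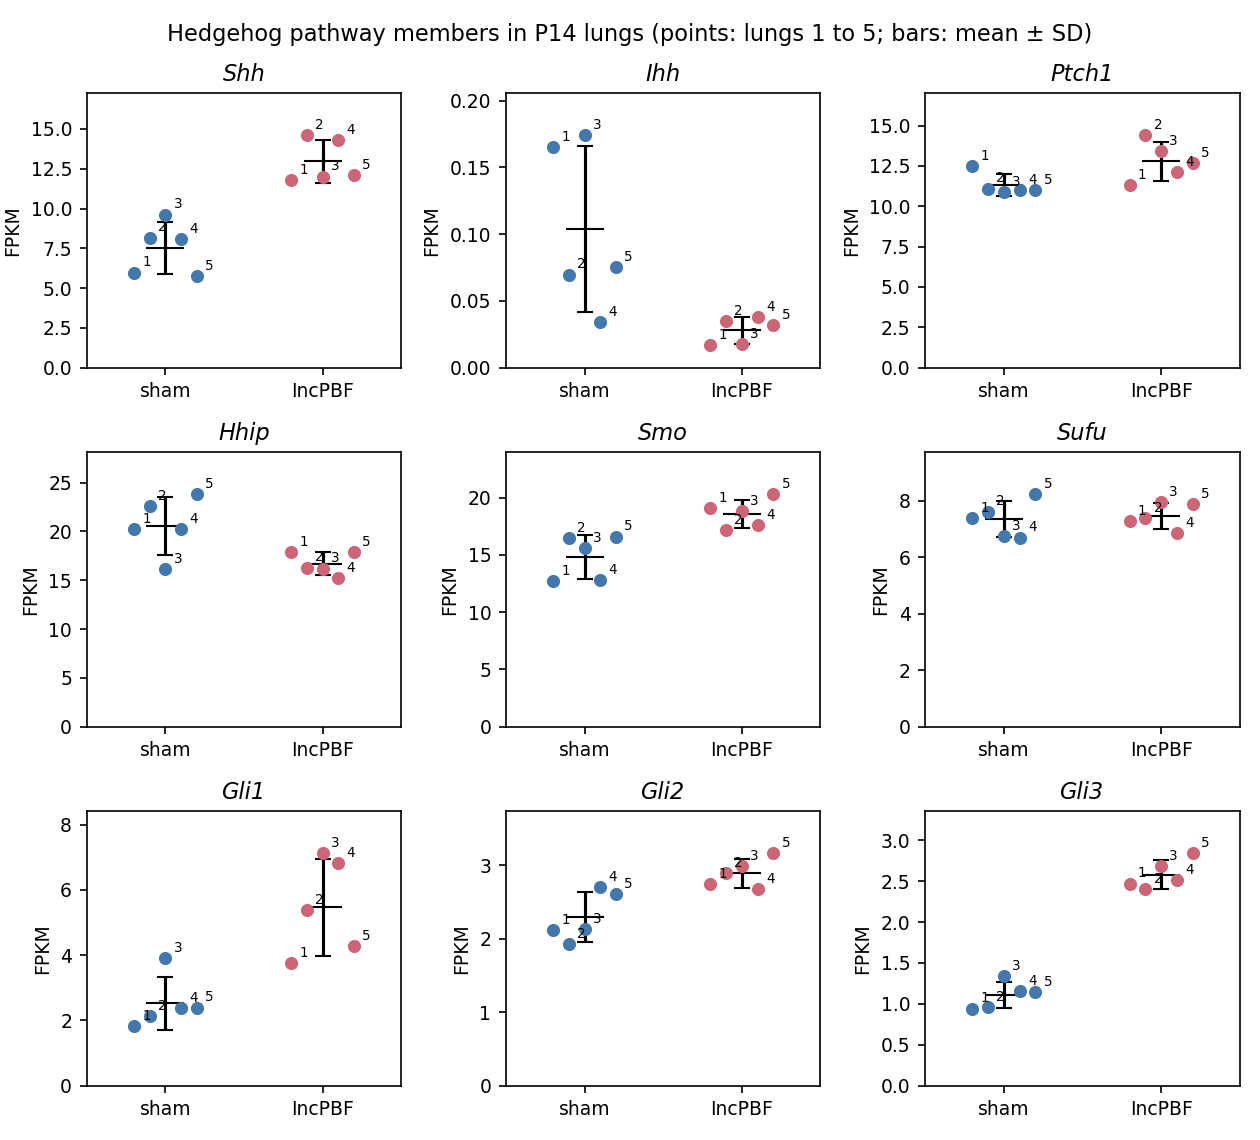
FPKM of the 9 members in each lung, with sham in blue and IncPBF in red, the lung number beside each point and bars for mean ± SD (n = 5 per group). The IncPBF points lie above all sham points for Shh, Smo and Gli3, and the groups overlap for the other 6 genes, with Hhip and Ihh lower on average in the IncPBF group.

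The fold changes depended on how the lungs were scaled to each other. The library size by which the deposited values were divided was 1.02 to 1.07 times the fragments on genes for IncPBF lungs and 0.958 to 1.03 times for sham lungs (below 1 in 3 of 5), so it was not this total and moved with the group. With the FPKM as deposited, 2480 genes were called higher and 2490 lower (49.9% of the calls higher). When every lung was set to an equal total, 3559 were called higher and 1782 lower (66.6% higher), and the median of all genes rose from 0.0145 to 0.0922 on the log2 scale. Under the equal total, 6 members were higher and 0 lower, because Ptch1 passed the test (log2 fold change 0.25, limma adjusted p = 0.0162) and Hhip no longer did (-0.21, adjusted p = 0.0672).

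Another difference ran along with the groups. Xist, the RNA that coats the inactive X chromosome of females, was at 52.4 to 66.5 FPKM in IncPBF lungs 2 to 5, but at 0.0144 FPKM in IncPBF lung 1 and at 0.0064 to 0.077 FPKM in the sham lungs. Ddx3y, a gene of the Y chromosome, was at 18.6 FPKM in IncPBF lung 1, much like the sham lungs (21.8 to 24.6 FPKM), and did not exceed 0.00926 FPKM in IncPBF lungs 2 to 5. For most lungs, sex and surgery therefore cannot be told apart, and IncPBF lung 1 is the only IncPBF lung with the sex-linked expression of the sham group. Its value is given below for each member. It lay outside the range of the sham lungs for 4 of the 8 tested members (Shh, Smo, Gli2 and Gli3) and within it for Ptch1, Gli1, Hhip and Sufu. No matching share over all genes tested is given, and a single lung can fall outside the range of 5 others by chance. The count is therefore a description only. When log2 Xist was added as a covariate, which makes the estimate rest on IncPBF lung 1, 1 member, Gli3, was still called. Over all genes, 748 of 15387 were called in that fit, in either direction, against 4970 without the covariate.

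As sequence context for the members that changed, the 250 bases before the RefSeq start were read from a promoter table on GRCm38.p6, which held 7 of the 9 members and not Shh and Gli1. The windows of 4 genes that lie just outside the gene are shown, written 5′ to 3′ on the gene's strand, for 2 members that were upregulated (Smo and Gli2), the one that was downregulated (Hhip) and one that did not pass the test (Sufu). Capitals mark CCACCC, the core of the sequence bound by Gli factors, or GGGTGG, its reverse complement.
Smo, chr6:29735247-29735496, plus strand: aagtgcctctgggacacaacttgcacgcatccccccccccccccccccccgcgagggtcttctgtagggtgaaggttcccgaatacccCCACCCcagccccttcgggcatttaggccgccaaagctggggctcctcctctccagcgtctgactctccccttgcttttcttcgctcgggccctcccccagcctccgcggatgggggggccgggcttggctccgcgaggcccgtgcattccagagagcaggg
Gli2, chr1:119053620-119053869, minus strand: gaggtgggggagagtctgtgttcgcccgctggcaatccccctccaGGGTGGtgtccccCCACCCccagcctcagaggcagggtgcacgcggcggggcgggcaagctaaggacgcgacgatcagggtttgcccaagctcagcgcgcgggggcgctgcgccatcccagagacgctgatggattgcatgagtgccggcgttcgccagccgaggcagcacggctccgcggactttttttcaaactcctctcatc
Hhip, chr8:80058009-80058258, minus strand: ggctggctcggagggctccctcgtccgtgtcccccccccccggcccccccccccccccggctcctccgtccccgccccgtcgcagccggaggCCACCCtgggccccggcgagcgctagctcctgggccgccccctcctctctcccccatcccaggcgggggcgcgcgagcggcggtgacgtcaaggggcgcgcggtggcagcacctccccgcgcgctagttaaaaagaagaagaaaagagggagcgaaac
Sufu, chr19:46396646-46396895, plus strand: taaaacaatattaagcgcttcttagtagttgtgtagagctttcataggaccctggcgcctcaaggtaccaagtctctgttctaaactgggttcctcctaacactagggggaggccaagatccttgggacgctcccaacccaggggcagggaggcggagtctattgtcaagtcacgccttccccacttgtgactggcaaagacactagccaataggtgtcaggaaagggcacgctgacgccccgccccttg
The core stood in 5 of the 7 member windows (Smo, Gli2, Gli3, Hhip and Ihh), and in 28.1% of the 32851 windows in the table. Its 5′ base on the printed strand stood 162 bases before the start in Smo and 158 in Hhip, and Gli2 held it at 192 and 205. It was therefore present ahead of a member that rose and of one that fell. The full 9-base Gli motif GACCACCCA, searched on both strands, was in 0 of the 7 windows and in 0.225% of all windows. The core is contained in the full motif. Of the printed windows, those of Gli2, Smo and Hhip are rich in G and C (67.2%, 68.4% and 76.0%). That of Sufu (54.0%) is near the median of 52.4% over the table. The Ptch1 window, which is not printed and has no core, has 78.4%. A match is a description of the letters and no evidence of binding.

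Shh (ENSMUSG00000002633, chromosome 5, 28456815 to 28467256, minus strand, GRCm38) encodes the ligand that the lung epithelium secretes. Its level was 11.8, 14.6, 12.0, 14.3 and 12.1 FPKM in IncPBF lungs 1 to 5, and 5.97, 8.17, 9.61, 8.07 and 5.75 FPKM in sham lungs 1 to 5. Every IncPBF lung was above every sham lung, including IncPBF lung 1 at 11.8 FPKM. The means were 13.0 ± 1.36 and 7.51 ± 1.63 FPKM (SD, n = 5 each), a log2 fold change of 0.80 (SE 0.14, 95% interval 0.50 to 1.1, limma adjusted p = 0.00138). The same separation of groups was seen for Smo and Gli3, thus for 3 of the 9 members, whereas no member had all IncPBF lungs below all sham lungs. Over all genes tested, 12.0% had every IncPBF lung above every sham lung and 11.2% had every IncPBF lung below. With log2 Xist as a covariate the Shh estimate was 0.65 (adjusted p = 0.153). Sham lung 5, which had the lowest Shh, also had 128 FPKM of Scgb1a1, the main secretory product of club cells in the airways, against 5120 to 11700 FPKM in the other sham lungs. Without that lung the call for Shh stood, as it did without any other lung (log2 fold change 0.71 to 0.89). A long noncoding RNA and an antisense transcript (Gm26894 and 9530036O11Rik) overlap Shh on the opposite strand, and whether the counting used the strand is not given in the sources used here; they reached at most 2.15 FPKM.

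Markers of AT1 cells moved opposite to Shh. Of 10 AT1 markers, 9 were called lower (against 16.2% of all genes tested) and 1 did not pass, with a median log2 fold change of -0.43. The summed level of the AT1 markers was 1230 to 1360 FPKM in the IncPBF lungs against 1540 to 2040 FPKM in the sham lungs. Among them, Ager, a receptor abundant on AT1 cells, was at 584 ± 11.0 against 853 ± 114 FPKM, and Lmo7 at 22.9 ± 2.63 against 46.5 ± 9.11 FPKM. Clic5 and Rtkn2 had log2 fold changes of -0.74 and -0.63. With log2 Xist as a covariate, 1 of the 10 markers (Lmo7, limma adjusted p = 0.0419) was still called, against 748 of all 15387 genes in either direction. The estimates of all 10 markers stayed negative in that fit and their SEs grew, for Ager from -0.54 (SE 0.09) to -0.51 (SE 0.17). In a bulk sample, fewer cells of a type and less RNA per cell cannot be told apart. The log2 level of Shh relative to the mean log2 level of the 10 AT1 markers was 1.30 higher in the IncPBF group (exact two-sided permutation test, p = 0.00794, the smallest that 5 against 5 lungs can give). Shh and the summed AT1 markers each separated the groups already, in opposite directions. This p-value therefore repeats those results and is no separate evidence. Of 8 AT2 markers, 4 were called lower and 4 did not pass. Of 6 tested airway markers, limma and limma-voom called 0, and 1 had an unadjusted p under 0.05.

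Ihh (ENSMUSG00000006538, chromosome 1, 74945315 to 74951672, minus strand), the ligand best known from growing cartilage, was almost absent. Its level corresponded to 1, 2, 1, 2 and 2 fragments in IncPBF lungs 1 to 5 and to 9, 4, 10, 2 and 4 fragments in sham lungs 1 to 5. All IncPBF lungs and sham lung 4 were under the floor of 3 fragments, and the groups met at 2 fragments. Pooled over lungs there were 8 fragments with IncPBF and 29 with sham surgery, a ratio of 0.269 (95% interval 0.106 to 0.603, for counting error alone, since fragments can be copies of 1 molecule). As a mean, Ihh was at 0.0279 ± 0.00986 and 0.104 ± 0.0622 FPKM (SD, n = 5 each). Cartilage can be carried along with the large airways of a dissected lung. Of 8 cartilage markers, 2 were high enough to be tested, the summed level of the 8 was 1.84 to 3.14 FPKM with IncPBF and 2.34 to 3.06 FPKM with sham surgery, and Col10a1, the collagen of hypertrophic cartilage, was called lower (0.494 ± 0.190 against 1.02 ± 0.299 FPKM, limma adjusted p = 0.0255). The other tested marker, Hapln1, was not called (log2 fold change 0.07, limma adjusted p = 0.802). Among the untested markers, Matn3 was higher with IncPBF (0.18 ± 0.0621 against 0.0688 ± 0.0209 FPKM) and Acan lower (0.0433 ± 0.0205 against 0.0953 ± 0.0388 FPKM). The part of cartilage in the Ihh counts was not tested.

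Ptch1 (ENSMUSG00000021466, chromosome 13, 63508328 to 63573598, minus strand) is the receptor that holds Smo in check and a target of the pathway. Its FPKM was 11.3, 14.4, 13.4, 12.1 and 12.7 in IncPBF lungs 1 to 5 and 12.5, 11.1, 10.9, 11.0 and 11.0 in sham lungs 1 to 5. Sham lungs 2 to 5 lay close together and sham lung 1 stood above them, within the range of the IncPBF group. IncPBF lung 1 was the lowest of its group and within the sham range. The means were 12.7 ± 1.19 and 11.3 ± 0.685 FPKM (SD, n = 5 each), a log2 fold change of 0.17 (SE 0.07, 95% interval 0.02 to 0.32) that missed the threshold (limma adjusted p = 0.0876). It passed without IncPBF lung 1 (0.21, adjusted p = 0.0404) or without sham lung 1 (0.21, adjusted p = 0.0492). With the Xist covariate the estimate was 0.0056 (adjusted p = 0.982).

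Hhip (ENSMUSG00000064325, chromosome 8, 79965851 to 80058006, minus strand) encodes a membrane protein that binds hedgehog ligands and keeps them from Ptch1. It was at 17.9, 16.3, 16.2, 15.2 and 17.9 FPKM in IncPBF lungs 1 to 5, and at 20.2, 22.6, 16.1, 20.2 and 23.8 FPKM in sham lungs 1 to 5. Sham lung 3 was as low as the IncPBF lungs, and the other 4 sham lungs were above all of them. The means were 16.7 ± 1.17 and 20.6 ± 2.95 FPKM (SD, n = 5 each), and Hhip fell by 0.29 on the log2 scale (SE 0.10, limma adjusted p = 0.0397). This call was close to the threshold, and it was lost in 7 of the 10 fits that left out 1 lung (adjusted p up to 0.0931), which were those without IncPBF lung 2, 3 or 4 or sham lung 1, 2, 4 or 5. With the Xist covariate the estimate was -0.16 (adjusted p = 0.637).

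Smo (ENSMUSG00000001761, chromosome 6, 29735503 to 29761365, plus strand) encodes the transducer that Ptch1 inhibits and that cyclopamine, the inhibitor used by the study in other animals, blocks. Its FPKM was 19.1, 17.2, 18.8, 17.6 and 20.3 in IncPBF lungs 1 to 5 and 12.7, 16.5, 15.6, 12.8 and 16.6 in sham lungs 1 to 5. The groups did not overlap, but the gap between 16.6 and 17.2 FPKM was small. Means of 18.6 ± 1.24 and 14.8 ± 1.96 FPKM (SD, n = 5 each) gave a log2 fold change of 0.33 (SE 0.09, 95% interval 0.14 to 0.53, limma adjusted p = 0.0155). Leaving out any 1 lung kept the call, with adjusted p-values up to 0.0374. With the Xist covariate the estimate was 0.37 and was not called (adjusted p = 0.217).

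Sufu (ENSMUSG00000025231, chromosome 19, 46396896 to 46488804, plus strand), the cytoplasmic inhibitor of the Gli factors, ranged from 6.85 to 7.96 FPKM with IncPBF (7.27 FPKM in IncPBF lung 1) and from 6.70 to 8.23 FPKM with sham surgery. The means were 7.47 ± 0.459 and 7.34 ± 0.638 FPKM (SD, n = 5 each). The log2 fold change was 0.03 with a 95% interval of -0.13 to 0.18 (limma adjusted p = 0.796), so that a change of the size seen for Smo lies outside the interval.

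Gli1 (ENSMUSG00000025407, chromosome 10, 127329882 to 127341974, minus strand), an activator whose own transcription is a readout of the pathway, was at 3.76, 5.37, 7.12, 6.82 and 4.27 FPKM in IncPBF lungs 1 to 5. In sham lungs 1 to 5 it was at 1.82, 2.13, 3.90, 2.37 and 2.39 FPKM. Sham lung 3 stood above the other sham lungs and also above IncPBF lung 1, and otherwise every IncPBF lung was higher than every sham lung. The means were 5.47 ± 1.49 and 2.52 ± 0.807 FPKM (SD, n = 5 each), with a log2 fold change of 1.09 (SE 0.22, 95% interval 0.61 to 1.57, limma adjusted p = 0.0033). The call held without any 1 lung (log2 fold change 0.99 to 1.26). With the Xist covariate the estimate was 0.56 and was not called (adjusted p = 0.377). Arhgap9 shares 62 bases with Gli1 on the opposite strand and averaged 3.48 FPKM with IncPBF against 3.64 FPKM with sham surgery.

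Gli2 (ENSMUSG00000048402, chromosome 1, 118834132 to 119053619, minus strand), the main activator in response to ligand, changed less. Its FPKM was 2.74, 2.89, 2.99, 2.67 and 3.16 in IncPBF lungs 1 to 5 and 2.12, 1.92, 2.13, 2.70 and 2.60 in sham lungs 1 to 5. Sham lungs 4 and 5 came close to the IncPBF lungs, and sham lung 4 was above IncPBF lung 4. The means of 2.89 ± 0.195 and 2.29 ± 0.340 FPKM (SD, n = 5 each) gave a log2 fold change of 0.33 (SE 0.10, 95% interval 0.11 to 0.55, limma adjusted p = 0.0296). The call was lost without IncPBF lung 2, 3 or 5 and without sham lung 1, 2 or 3, with adjusted p-values up to 0.067, and when no filter on low values was applied (adjusted p = 0.0609). The estimate with the Xist covariate was 0.26 (adjusted p = 0.451).

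Gli3 (ENSMUSG00000021318, chromosome 13, 15463235 to 15730026, plus strand), the factor whose processed form is the main repressor of the pathway, had the smallest adjusted p of the members. Its level was 2.47, 2.40, 2.68, 2.51 and 2.84 FPKM in IncPBF lungs 1 to 5 and 0.941, 0.963, 1.34, 1.16 and 1.14 FPKM in sham lungs 1 to 5. The lowest IncPBF lung was well above the highest sham lung, and IncPBF lung 1 was like the rest of its group. The means were 2.58 ± 0.178 and 1.11 ± 0.163 FPKM (SD, n = 5 each), a log2 fold change of 1.16 (SE 0.11, 95% interval 0.92 to 1.4, limma adjusted p = 3.77e-05). The call held under every alternative run, with estimates from 0.77 (pseudocount 1) to 1.23, and with the Xist covariate the estimate was 1.08 (adjusted p = 0.0144). The values are transcript levels and do not separate full-length Gli3 from the repressor, which is made from the protein.

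**Figure D2:**
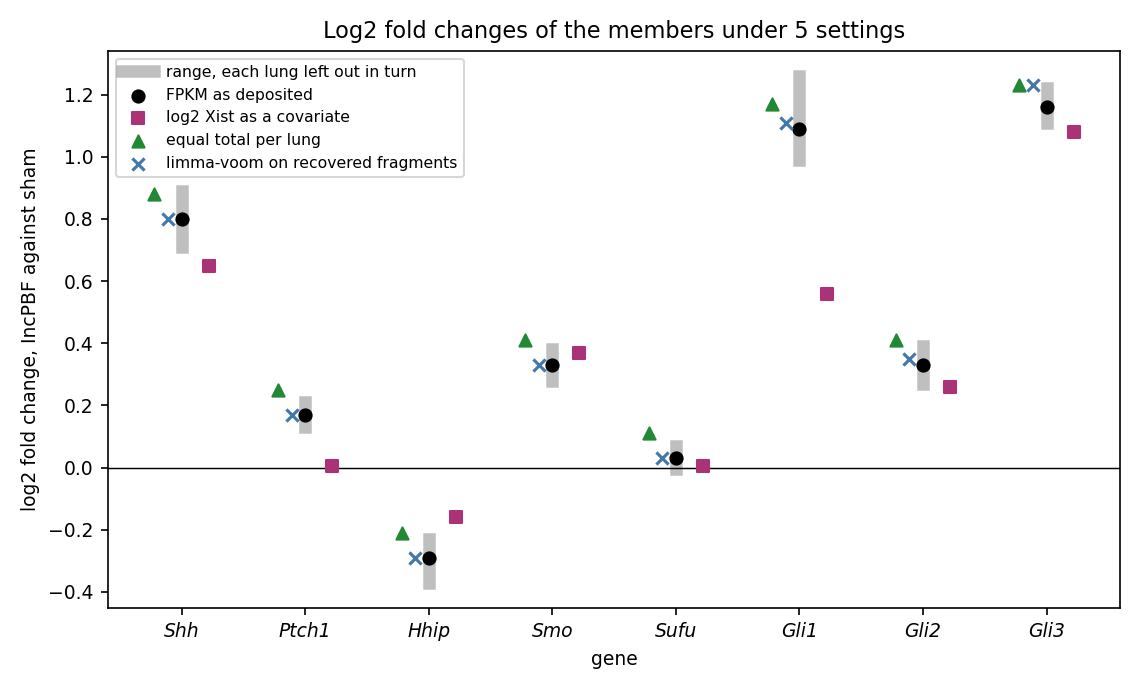
Log2 fold changes, IncPBF against sham, of the 8 tested members under 5 settings: the values as deposited (black), log2 Xist as a covariate (purple), an equal total per lung (green), limma-voom on fragments (blue crosses) and the range when each lung is left out in turn (grey bars). Gli3 stays at 1.08 or above in all of them, whereas Gli1 moves from 1.09 to 0.56 with the Xist covariate and Ptch1 from 0.17 to 0.0056.

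The order of the members by level also changed. In the sham lungs it was Hhip, Smo, Ptch1, Shh, Sufu, Gli1, Gli2, Gli3 and Ihh, on the FPKM scale, which is per length. The ranges of Hhip and Smo, of Shh and Sufu and of Gli1 and Gli2 overlapped, and the other neighbours were apart. In the IncPBF lungs Smo stood before Hhip and Shh before Ptch1, although the ranges of each pair overlapped. Sufu and Gli1, and Gli2 and Gli3, overlapped there as well. Within each lung, Gli3 was below Gli2 in every sham lung and also in every IncPBF lung. The order of Gli2 and Gli3 was therefore kept, although their ranges were apart in the sham group and overlapped in the IncPBF group.

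Since Gli1, Ptch1 and Hhip are all used as readouts, their ratios within each lung were compared. The log2 ratio of Gli1 to Ptch1 was -1.24 ± 0.36 with IncPBF and -2.17 ± 0.46 with sham surgery (SD, n = 5 each), a difference of 0.92 (exact two-sided permutation test, p = 0.0238, adjusted over 6 ratios p = 0.0476). Gli1 to Hhip differed by 1.38 and Ptch1 to Hhip by 0.46, with exact p of 0.0238 and 0.0159 and an adjusted p of 0.0476 for each. The 3 readouts were therefore unequal in their change between these groups: Gli1 rose most, Ptch1 stood between and Hhip was lowest. IncPBF lung 1, with the sex-linked expression of the sham group, had the lowest IncPBF value of each ratio. Its values (-1.56 for Gli1 to Ptch1, -2.22 for Gli1 to Hhip, -0.67 for Ptch1 to Hhip) lay within the sham ranges, whose highest values were -1.46, -2.02 and -0.56. These highest values came from sham lung 3 (Gli1 3.90, Ptch1 10.9 and Hhip 16.1 FPKM). IncPBF lung 5, which had high Xist, also lay within the sham range for Gli1 to Ptch1 and for Gli1 to Hhip (Gli1 4.27, Ptch1 12.7 and Hhip 17.9 FPKM). A low ratio was therefore not particular to IncPBF lung 1. The ratios were not fitted with the Xist covariate. These 3 ratios, and that of Gli1 to Gli2 (0.76, exact p = 0.0317, adjusted p = 0.0476), each lost the adjusted threshold in 7 of the 10 sets that left out 1 lung, which were all but those without IncPBF lung 1, IncPBF lung 5 or sham lung 3. The log2 ratio of Gli1 to Gli3 differed by -0.07 between the groups (exact p = 0.794) and that of Shh to Gli1 by -0.29 (exact p = 0.19), with group SDs of 0.23 to 0.41 for these 2 ratios.

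The remainder of the pathway was followed in 30 genes, of which 29 were tested. Of these, 3 were called higher, 5 lower and 21 did not pass, with a median log2 fold change of -0.06. These shares are no larger than, or close to, those over all genes tested (16.1% higher and 16.2% lower), so the called genes below are given as single measurements and not as a pattern of the pathway. Among 6 genes of ligand production and release, 5 were tested, and Scube2, which helps to release the lipid-bearing ligand from cells, was the 1 that was called, as lower. Scube2 was at 31.9, 34.3, 25.3, 24.2 and 38.3 FPKM in IncPBF lungs 1 to 5 and at 78.4, 77.9, 48.9, 56.2 and 83.6 FPKM in sham lungs 1 to 5. All IncPBF lungs, lung 1 included, were below all sham lungs, and Scube2 fell by 1.15 on the log2 scale (SE 0.17, limma adjusted p = 0.000623). With the Xist covariate its estimate was -1.02 and was not called (limma adjusted p = 0.0874). Dhh, the remaining ligand of the family, was at 0.955 ± 0.144 against 0.720 ± 0.0998 FPKM (SD, n = 5 each) and did not pass (limma adjusted p = 0.0975), although every IncPBF lung was above every sham lung, and Hhat was not tested.

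Of 6 genes that act where the ligand is received, Gas1 and Boc, which present the ligand to Ptch1, were called lower, and the other 4 did not pass. Gas1 was at 15.4, 15.3, 14.3, 15.2 and 19.7 FPKM in IncPBF lungs 1 to 5 and at 27.8, 30.2, 30.4, 31.5 and 40.0 FPKM in sham lungs 1 to 5. The groups were far apart, and Gas1 fell by 1.00 (SE 0.11, limma adjusted p = 8.01e-05). It was the co-receptor still called with the Xist covariate (-1.02, adjusted p = 0.0174). Boc fell by 0.22 (13.7 ± 0.983 against 16.0 ± 1.21 FPKM), while Cdon, which has the same role, was at -0.07 and not called (adjusted p = 0.662).

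Among 9 genes acting on Smo or in the cilium, Gpr161 and Evc were higher and Mosmo was lower. Gpr161, a ciliary receptor that restrains the pathway through protein kinase A, was at 2.82 ± 0.248 against 1.60 ± 0.148 FPKM (SD, n = 5 each; log2 fold change 0.78, limma adjusted p = 0.000142), with IncPBF lung 1 at 2.62 FPKM. Evc, which passes the signal on from Smo, rose by 0.41, and Mosmo, which lowers the amount of Smo at the cell surface, fell by 0.36. Among 9 genes of Gli processing, Csnk1a1, a kinase of Gli proteins, rose by 0.19, and Spop, an adaptor that directs Gli proteins to degradation, fell by 0.35 (75.1 ± 6.21 against 95.9 ± 7.32 FPKM). Kif7 (0.26, adjusted p = 0.0942) and the other 6 did not pass. With the Xist covariate Gpr161 was still called (0.68, limma adjusted p = 0.0411), whereas Evc, Mosmo, Csnk1a1 and Spop were not. Under an equal total per lung, 8 rather than 3 of the 29 genes were called higher. Over all 15388 genes tested, 3559 rather than 2480 were called higher under that scaling, so the larger count is not a result about the pathway genes.

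**Figure D3:**
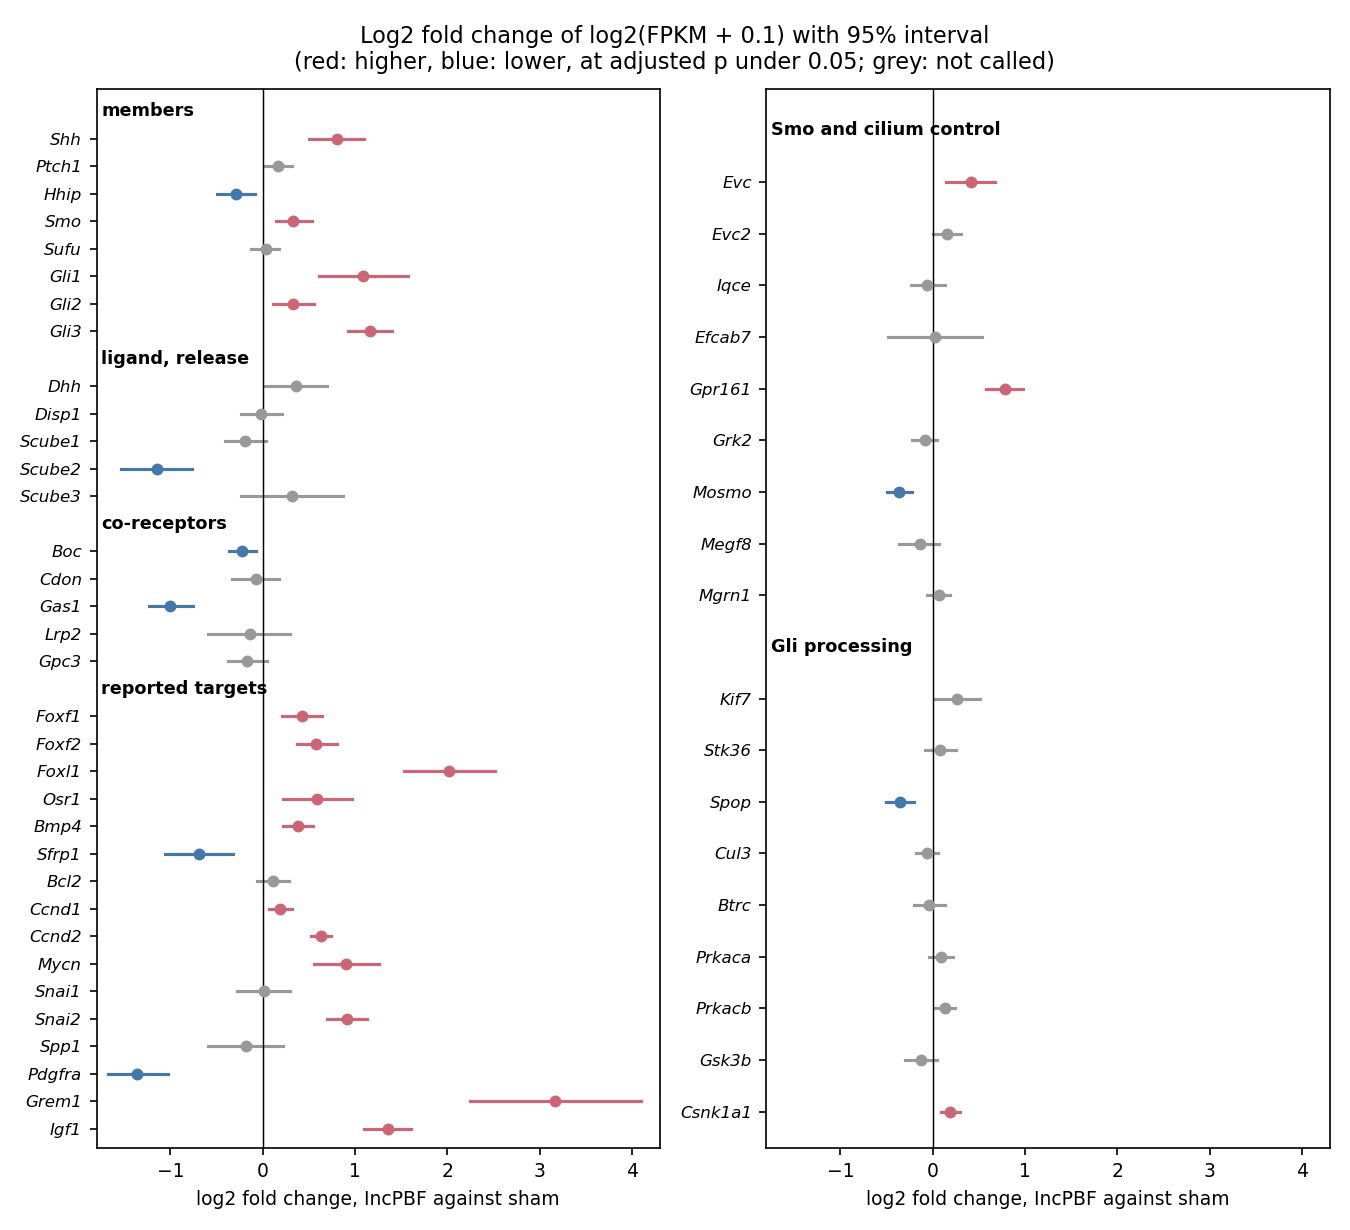
Log2 fold changes of log2(FPKM + 0.1), IncPBF against sham, with 95% intervals for the members, other pathway genes and reported targets (red and blue, adjusted p under 0.05; grey, not called). The members and targets lie mostly to the right of 0, and the called genes left of 0 are Hhip among the members, Pdgfra and Sfrp1 among the targets, and Scube2, Gas1, Boc, Mosmo and Spop among the others.

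Of 16 genes reported as hedgehog targets in lung or other tissue, beside Gli1, Ptch1 and Hhip, 11 were called higher and 2 lower (against 16.1% and 16.2% of all genes tested). The other 3 were not called, and the median log2 fold change of the targets was 0.50. This list, like the other gene lists, was chosen with earlier results of these data known, so its counts are a description. Many of them respond to other signals as well. Grem1, a secreted antagonist of bone morphogenetic proteins, had the largest estimate (3.17, SE 0.42, limma adjusted p = 0.000318). Its level was 2.62, 5.06, 3.42, 4.35 and 4.12 FPKM in IncPBF lungs 1 to 5 and 0.0806, 0.461, 1.17, 0.265 and 0.235 FPKM in sham lungs 1 to 5. As for Gli1, sham lung 3 was the highest sham lung and IncPBF lung 1 the lowest IncPBF lung, but here the groups did not overlap. Foxl1, a forkhead factor of the mesenchyme, was at 2.13 ± 0.433 against 0.462 ± 0.175 FPKM (SD, n = 5 each; log2 fold change 2.02), and Igf1, a growth factor, at 16.7 ± 1.11 against 6.53 ± 1.27 FPKM (1.36). Snai2, a repressor of epithelial genes, rose by 0.91.

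Pdgfra and Sfrp1 went the other way. Pdgfra, the receptor that marks alveolar myofibroblast progenitors and lipofibroblasts, was at 26.3, 20.9, 20.2, 18.8 and 25.8 FPKM in IncPBF lungs 1 to 5 and at 73.7, 58.7, 44.3, 47.4 and 66.3 FPKM in sham lungs 1 to 5. It fell by 1.36 (SE 0.15, limma adjusted p = 9.01e-05). Sfrp1, a secreted Wnt antagonist, fell by 0.69 (1.36 ± 0.381 against 2.20 ± 0.225 FPKM). The cell-cycle genes of the list, Ccnd1, Ccnd2 and Mycn, were all called higher, with Ccnd2 at 30.5 ± 1.56 against 19.6 ± 0.623 FPKM. With the Xist covariate, 4 targets were still called higher (Foxl1, Ccnd2, Snai2 and Igf1) and 1 lower (Pdgfra). Over all genes, that fit called 748 of 15387 in either direction.

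**Figure D4:**
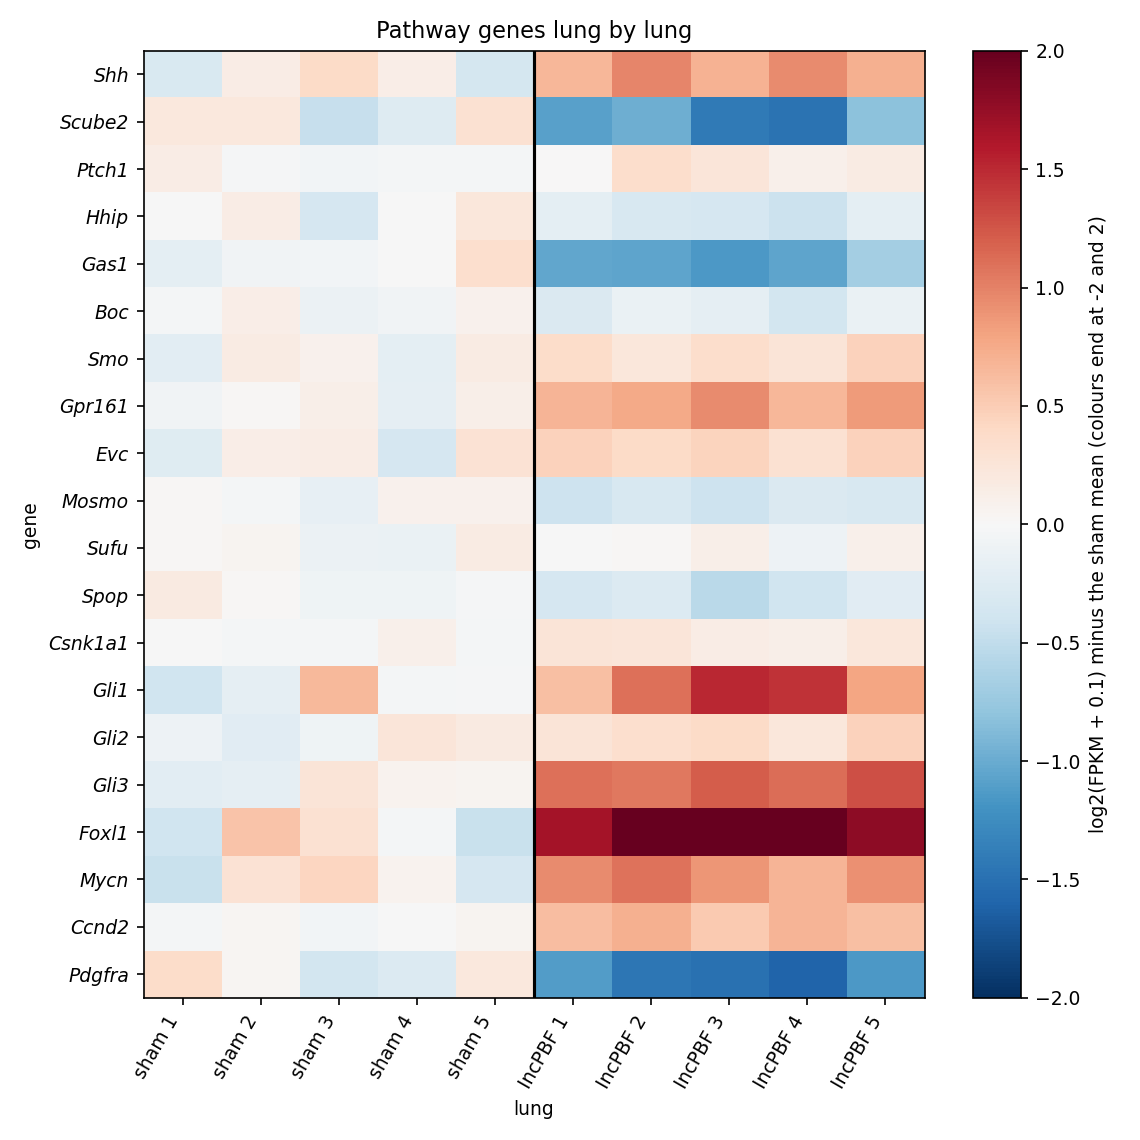
Log2(FPKM + 0.1) of members, other called pathway genes and selected targets in each lung, as the difference from the sham mean (colours end at -2 and 2). The IncPBF columns are red for Shh, Smo, Gpr161, Gli1 and Gli3 and blue for Scube2, Gas1 and Pdgfra, and sham lung 3 is red for Gli1.

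Most markers of myofibroblasts and of smooth muscle moved with Gli1, whereas those of other fibroblasts were mixed. Of 10 myofibroblast markers, 7 were called higher, 1 lower (Pdgfra, which is also in the target list) and 2 not called, with a median log2 fold change of 1.02. Over all genes tested, 16.1% were called higher and 16.2% lower. The summed level of the 10 myofibroblast markers was 703 to 1010 FPKM with IncPBF against 342 to 574 FPKM with sham surgery. Tgfbi, a matrix protein induced by TGF-beta, was at 232 ± 21.6 against 62.6 ± 25.4 FPKM, and sham lung 3 was again the highest sham lung, at 103 FPKM. Acta2, the contractile actin of these cells, rose by 1.57 on the log2 scale, and Wnt5a and Fgf18, signals made by them, by 1.27 and 1.22. Of 8 smooth muscle markers, 5 were called higher and 3 did not pass, and their summed level was 133 to 240 FPKM against 78.5 to 119 FPKM. With log2 Xist as a covariate, 4 myofibroblast markers were still called higher and 1 lower, whereas the 5 smooth muscle calls were lost (Actg2, a contractile actin, went from 1.65 to 0.887 on the log2 scale). Over all genes, that fit called 748 of 15387 in either direction, against 4970 without the covariate. Adventitial fibroblast markers (3 of 8 higher, 1 lower) and lipofibroblast markers (1 of 8 higher, 3 lower) were mixed, 6 of 8 endothelial markers were lower (1 with the Xist covariate), and limma and limma-voom called 0 of 8 leukocyte markers, of which 1 had an unadjusted p under 0.05. The estimates of the 6 endothelial markers stayed negative with that covariate.

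Relative to the mean log2 level of the myofibroblast markers, Gli1 was 0.28 higher in the IncPBF group (exact two-sided permutation test, p = 0.175), and 0.65 higher relative to their median (exact p = 0.0238). The choice of summary thus decided whether the difference passed. Hhip relative to the mean of the same markers was -1.10 (exact p = 0.00794). Most of these markers were called higher and Hhip lower, so this difference largely repeats those results. How far the marker levels account for the change of Gli1 was not tested.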

How the data were processed

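The IncPBF and sham groups, with 5 lung samples each, were profiled at P14, after surgery at P7. The authors prepared libraries with a NEBNext kit, sequenced them on a NovaSeq instrument and deposited gene-level FPKM values with the gene length in bases. The submitters' processing notes name Bowtie 0.12.2 and the builds mm10 and GRCm38, without a role for each, and the counting software, the use of strand and the test are not given in the sources used here. The coordinates of 98.3% of 54409 shared genes, and of all 9 members, equalled those of GENCODE M21 on GRCm38. Sample titles and deposited column names differ for the IncPBF group, whose columns were taken as those not named sham.

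FPKM times gene length gave whole fragments for 100% of the values in each lung (tolerance 0.02). A single fragment on 1 kb was worth 0.0482 to 0.0580 FPKM, and a count of 3 fragments was taken as the floor. Intervals on fragments cover counting error only. Log2(FPKM + 0.1) of 15388 genes with a mean of at least 0.5 FPKM was compared with limma 3.58.1 (eBayes with a trend) in R 4.3.3, without covariates, with Benjamini-Hochberg adjustment over all genes tested and a threshold of 0.05. A fold change on this scale understates the change of low genes. Limma-voom on the recovered fragments called 5150 genes, against 4970 by limma on FPKM. Single values and ratios were compared by two-sided exact permutation over the 252 assignments of lungs, which cannot give a p below 0.00794. The fit was tested on simulated data. Python 3.11.15, numpy 2.4.6, pandas 2.3.3 and matplotlib 3.10.9 were used for the remaining steps.

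The members, gene lists and tests were chosen with earlier results of these data known. The genes named are the 9 members, at most the 4 largest called changes in each direction from each list, the 5 genes most like Shh and Gli1, Xist and Ddx3y. Scgb1a1, Dhh, Hhat, Cdon, Kif7, Ccnd1, Ccnd2, Mycn, Hapln1, Matn3, Acan and the genes that overlap Shh or Gli1 lie outside this rule and were chosen after their values were seen. Alternatives were the pseudocount (1 or 0.01), the filter (1 FPKM or none), the scaling (equal total, quantile normalization or median centring), a replicate block, no trend in eBayes, log2 Xist as a covariate, limma-voom and each lung left out in turn. Litter, batch and date of surgery are not in the labels and were not tested. Promoter windows came from RefSeq. The values of 1 listed gene are not reported here.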

Additional observations from a re-analysis of the deposited data

Results flagged for a closer look

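Of 36 groups of 5 lungs examined (the 9 members and the ratios and marker differences, in each group), 3 held a lung whose gap to its nearest neighbour was more than 0.71 of the group's range, and chance flags about 1 in 20 such groups. Ptch1 in sham lung 1 was 12.5 FPKM, above the other sham lungs at 10.9 to 11.1 FPKM (gap 0.86 of the range). Gli1 in sham lung 3 was 3.90 FPKM, above the other sham lungs at 1.82 to 2.39 FPKM (gap 0.725). The log2 ratio of Gli1 to Hhip in the same lung was -2.02, the highest of the sham group, whose lowest was -3.40 (gap 0.737). Sham lung 3 also had the lowest Hhip of its group (16.1 FPKM) and the highest Shh (9.61 FPKM).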

How the results depend on the processing

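The number of members called higher was 5 and ran from 4 to 6 when each lung was left out in turn, while the 1 member called lower ran from 0 to 1. The member called lower was lost (0) with no filter on low values, with an equal total per lung and with eBayes without a trend; in each case it was Hhip (adjusted p = 0.0759, 0.0672 and 0.0565). With no filter Gli2 was lost as well (adjusted p = 0.0609), which left 4 members higher. With an equal total per lung, 8 rather than 3 other pathway genes were called higher, as were 3559 rather than 2480 of all genes tested. With log2 Xist as a covariate, 1 member was higher and 0 lower, 1 other pathway gene was higher and 1 lower, 4 targets were higher and 1 lower, and 748 of all genes were called, against 4970 without it. That fit rests on IncPBF lung 1. Leaving out each lung gave 2 to 3 other pathway genes higher and 4 to 6 lower, 10 to 11 targets higher and 2 lower, and 3869 to 5234 genes in all. The log2 ratios ran from 0.78 to 1.10 for Gli1 to Ptch1, 1.26 to 1.63 for Gli1 to Hhip, 0.39 to 0.53 for Ptch1 to Hhip, 0.65 to 0.95 for Gli1 to Gli2 and -0.16 to 0.05 for Gli1 to Gli3, whose sign was also reversed at a pseudocount of 1 (0.11). Sufu ran from -0.0036 to 0.07, and was -0.0013 without sham lung 3. The difference of Gli1 from the median of the myofibroblast markers was 0.65, against 0.28 from their mean. The cause of these changes was not tested.

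Samples with the same replicate number did not deviate together (r from -0.0675 to 0.0854, and 2 of 5 correlated best with their own number), so the numbers do not pair the lungs. With the replicate block, 5 members were higher and 1 lower, 3 other pathway genes were higher and 6 lower, 11 targets were higher and 2 lower, and 4872 of all genes were called. Depth limits Ihh, which had at most 2 fragments in each IncPBF lung.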

Other observations

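The genes whose levels followed Shh and Gli1 most closely from lung to lung, after the mean of each group was removed, were looked up among 13533 genes with a mean of at least 1 FPKM. These correlations over 10 lungs share libraries and scaling, and the best of many genes will correlate highly by selection, so they are a description with no test. For Shh they were Cdc16 (r = 0.977), Rpl41 (0.971), Oscp1 (0.965), Cygb (0.963) and Gm10053 (0.962). For Gli1 they were Plpp5 (0.939), Olfml2b (0.925), Amigo3 (0.922), Rspo4 (0.917) and Pdlim7 (0.914). Of the 5 genes most like Shh, 4 were themselves called higher in the IncPBF group (limma adjusted p of 0.00171 for Cdc16, 0.0225 for Rpl41, 0.0466 for Oscp1 and 0.00348 for Cygb), and Gm10053 was not (0.0577). Of the 5 most like Gli1, 3 were called higher (limma adjusted p of 0.00569 for Plpp5, 7.34e-05 for Olfml2b and 0.000689 for Pdlim7), with log2 fold changes of 0.35, 1.28 and 0.74. Olfml2b encodes a secreted olfactomedin-domain protein, and Pdlim7 a PDZ and LIM domain protein of the actin cytoskeleton. Amigo3 and Rspo4 did not pass (adjusted p = 0.15 and 0.142). Over all genes tested, 16.1% were called higher, and counts among 5 genes picked by their correlation are a description only.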
